A study of Mus musculus with 25 samples.

Results

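The signalling lymphocytic activation molecule (SLAM) family receptors described here are 7 genes of mouse white adipose tissue, Slamf6, Slamf7, Slamf8, Slamf9, Cd84, Cd48 and Ly9, among the 54752 genes counted in the series. They were listed by symbol, and the list was chosen by a readout of these data, since Slamf9 is one of the genes with the largest rise on high-fat diet in epididymal fat. All 7 passed the filter on low counts (a mean CPM of at least 1, where CPM is the count scaled by library size) in the fits that use all libraries of a depot or of the series. Slamf6 did so in iWAT through its ND libraries, and it fell under the filter in some refits with fewer libraries. RNA-seq libraries, 25 in all, were made from whole epididymal (eWAT, 14 libraries) and inguinal (iWAT, 11 libraries) white fat of male C57BL/6N mice. Wild type mice ate normal chow diet (ND; 4 eWAT and 3 iWAT libraries) or high-fat diet with 60% of calories from fat (HFD; 5 and 5 libraries), and Acod1-/- mice ate HFD (5 and 3 libraries). HFD began at 5 weeks of age and lasted 16 weeks, except that the labels give 17 and 18 weeks for Acod1-/- iWAT replicates 2 and 3. Acod1 encodes the mitochondrial enzyme that makes itaconate. The knockout is a whole-body one, and chow-fed Acod1-/- mice were not analysed here, so the genotype effect is known on HFD alone. No source says whether eWAT and iWAT libraries came from the same mice, so depots were compared as separate samples.

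SLAM family receptors are immunoglobulin-type membrane proteins of blood cells. Most of them bind their own kind on a neighbouring cell, and the tail inside the cell recruits small adaptors (SAP, encoded by Sh2d1a, and the EAT-2 proteins, encoded by Sh2d1b1 and Sh2d1b2), kinases such as Fyn, or phosphatases such as SHP-1, SHIP-1 and SHP-2 (Ptpn6, Inpp5d and Ptpn11). Slamf6 and Ly9 are best known from T and B lymphocytes, Slamf7 from natural killer, plasma and activated myeloid cells, Cd84 and Cd48 from many leukocytes including macrophages, and Slamf8 and Slamf9 from macrophages and dendritic cells. Cd48 is held in the membrane by a lipid anchor and has no tail; it is the ligand of Cd244a and Cd2. Slamf8 and Slamf9 have short tails without the motif that binds SAP.

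All 7 genes lie on chromosome 1 (GRCm38) within 1001.9 kb. Ly9 (171588624 to 171607410, minus strand), Slamf7 (171632403 to 171653035, minus strand), Cd48 (171682009 to 171705258, plus strand), Cd84 (171839697 to 171890718, plus strand) and Slamf6 (171917515 to 171953170, plus strand) fill a cluster of 364.5 kb. Slamf9 (172475358 to 172478575, plus strand) and Slamf8 (172581758 to 172590568, minus strand) lie apart from it, with 522.2 kb between Slamf6 and Slamf9. Ly9 lies wholly within Cd244a, which is on the opposite strand. The library kit keeps strand, but the sources used here do not say whether reads were counted by it, so the Ly9 values are uncertain, and so, over a smaller stretch, are those of Slamf6 and Slamf7, which overlap an antisense transcript each.

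Cd84 and Cd48 followed the macrophage markers within groups, but in iWAT they did not rise with them from ND to HFD. Start regions are shown for these genes, for Slamf9, which differs from the other members in inguinal fat, and for Slamf6, which moved with lymphocyte markers. Each runs from 250 bases before to 50 bases after the RefSeq start on GRCm38.p6, read 5′ to 3′ on the strand of the gene. Capitals mark GAGGAAGT (a sequence bound by the myeloid factor PU.1), its shorter core GGAAGT, and the E-box CACGTG, or their reverse complements; every GAGGAAGT also holds a GGAAGT.
Slamf9, chr1:172475110-172475409, plus strand: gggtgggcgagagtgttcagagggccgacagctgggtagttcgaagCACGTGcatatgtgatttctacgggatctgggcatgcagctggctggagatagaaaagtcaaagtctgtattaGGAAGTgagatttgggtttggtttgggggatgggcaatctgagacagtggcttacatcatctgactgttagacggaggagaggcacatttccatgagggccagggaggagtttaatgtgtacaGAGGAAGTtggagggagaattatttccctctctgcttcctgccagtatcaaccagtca
Cd84, chr1:171839447-171839746, plus strand: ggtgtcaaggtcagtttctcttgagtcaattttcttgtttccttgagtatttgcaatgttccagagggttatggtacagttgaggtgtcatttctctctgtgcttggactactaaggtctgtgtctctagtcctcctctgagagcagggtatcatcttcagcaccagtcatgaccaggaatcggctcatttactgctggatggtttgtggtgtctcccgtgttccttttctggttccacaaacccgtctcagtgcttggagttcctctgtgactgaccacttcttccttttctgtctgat
Cd48, chr1:171681742-171682041, plus strand: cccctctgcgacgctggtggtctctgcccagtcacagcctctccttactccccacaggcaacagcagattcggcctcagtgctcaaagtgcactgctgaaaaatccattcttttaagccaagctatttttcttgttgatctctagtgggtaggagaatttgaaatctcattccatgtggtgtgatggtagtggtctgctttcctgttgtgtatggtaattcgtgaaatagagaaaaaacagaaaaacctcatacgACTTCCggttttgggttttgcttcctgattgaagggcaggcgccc
Slamf6, chr1:171917212-171917511, plus strand: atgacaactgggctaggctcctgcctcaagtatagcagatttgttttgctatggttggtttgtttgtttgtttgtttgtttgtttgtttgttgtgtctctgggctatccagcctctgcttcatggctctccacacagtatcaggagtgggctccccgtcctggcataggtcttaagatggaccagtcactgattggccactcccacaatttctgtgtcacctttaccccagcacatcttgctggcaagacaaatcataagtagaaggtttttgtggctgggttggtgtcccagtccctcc
Of the 6 members with a RefSeq start region (none was held for Ly9), 1 held GAGGAAGT, 3 held GGAAGT and 2 held CACGTG. In Slamf9, GAGGAAGT began 8 bases before the start, a further GGAAGT 131 bases before it and CACGTG 204 bases before it. Slamf8 held GGAAGT on the opposite strand from 37 bases before the start and CACGTG from 157 bases before it, and Cd48 held GGAAGT on the opposite strand from base 6 after the start. No match was found in Cd84, Slamf6 or Slamf7. Among all 32841 start regions of this length, 3.2% held GAGGAAGT, 23.8% held GGAAGT and 7.15% held CACGTG. The motifs were chosen after the sequences were seen, and a match is a run of letters, not a measured binding site.

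Libraries held 31405063 to 52335623 counted reads. Acod1 had at most 9 counts in any library, and its CPM did not differ detectably between Acod1-/- and wild type on HFD (2-sided exact permutation test, p = 0.484 in eWAT, n = 5 and 5, and p = 0.571 in iWAT, n = 3 and 5), so at this level the gene does not check the genotype labels. In iWAT on ND the summed CPM of 8 B cell markers was 684 to 1028, of 10 T cell markers 347 to 564 and of 7 lymph node markers 505 to 810. In 4 of the 5 wild type iWAT libraries on HFD the B cell sum was 6.97 to 7.58, whereas replicate 5 reached 96.7. A pair of eWAT libraries held much epididymis RNA, with marker sums of 7613 CPM in wild type ND replicate 2 and 1049 CPM in Acod1-/- replicate 5. In bulk tissue, fewer cells of a type and less RNA per cell cannot be told apart. Library numbers in the file headers fall into 2 series: all ND libraries and the last replicate of each HFD group are of series 2, and the other HFD libraries are of series 1.

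Per transcript length (mean FPKM), the members fell into high and low levels, and the order changed with depot and diet. In wild type eWAT on HFD, Cd48 (28.9 ± 15.2, SD, n = 5), Slamf9 (26.9 ± 5.26) and Cd84 (21.4 ± 14.7) stood highest. Slamf7 (4.90 ± 2.78), Slamf8 (2.70 ± 1.11) and Ly9 (2.48 ± 2.39) followed, and Slamf6 was lowest at 0.142 ± 0.0950; every pair of neighbours in this order overlapped between libraries. In wild type eWAT on ND the order began with Cd48 (5.24 ± 2.58, n = 4), Slamf9 (3.99 ± 1.04) and Cd84 (2.09 ± 1.15), and Cd84 lay apart from Slamf7 (0.719 ± 0.393) below it. In Acod1-/- eWAT on HFD, Slamf9 came first (9.07 ± 3.15, n = 5), ahead of Cd48 (6.81 ± 4.5), with overlapping values. In iWAT on ND, Cd48 was first (18.0 ± 4.64, n = 3) and Ly9 second (9.70 ± 3.87), each apart from the next, while Slamf9 (2.71 ± 1.02) was sixth of 7. In wild type iWAT on HFD, Slamf9 was first (9.22 ± 2.16, n = 5), overlapping with Cd48 (8.35 ± 2.63), and Ly9 (0.873 ± 0.753) came below Slamf7. In Acod1-/- iWAT the order again began with Slamf9 (6.05 ± 1.82, n = 3) and Cd48 (4.23 ± 1.04).

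**Figure D1:**
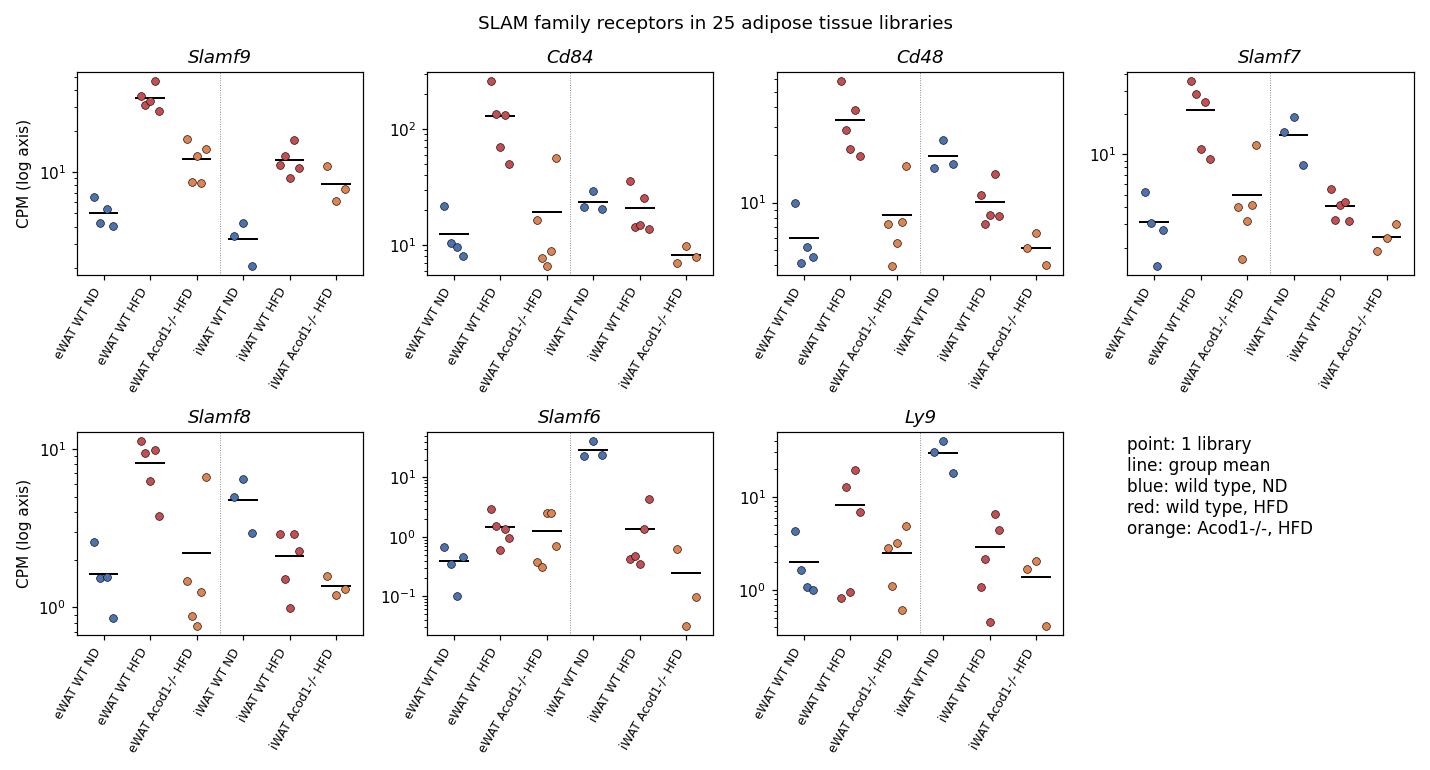
CPM (log axis, a different range in each panel) of the 7 SLAM family receptors in each of the 25 libraries, by depot, genotype and diet; a point is 1 library and a line the group mean. Slamf9 is higher in every HFD library than in every ND library of the same depot, whereas the group means of Slamf6 and Ly9 are highest in iWAT on ND, where 1 Ly9 library (18.1 CPM) is below 1 eWAT library on HFD (19.3 CPM).

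The iWAT diet comparison asks how HFD changed inguinal fat of wild type mice. Its libraries are not in the eWAT contrast that led to the list. The members were still chosen with earlier results of these data known. Slamf9 rose, and Slamf6, Ly9, Slamf7, Slamf8 and Cd48 fell, while Cd84 did not pass the test. Calls are at an adjusted p under 0.1 over 14801 genes by edgeR's quasi-likelihood test with Benjamini-Hochberg adjustment. With 1 member higher and 5 lower, the members can be set against 25.9% of all genes tested that were higher and 24.2% that were lower.

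Slamf9 was at 3.40, 4.26 and 2.06 CPM in the 3 ND libraries and at 11.2, 13.2, 9.12, 17.1 and 10.8 CPM in the 5 HFD libraries. Every HFD library was above every ND library, as in 24.4% of all genes tested. The rise was 3.89-fold (log2 fold change 1.96, SE 0.31, edgeR adjusted p = 0.000748), and leaving out any 1 library gave log2 values of 1.69 to 2.20. The one HFD library of the same header series as the ND libraries, replicate 5, was at 10.8 CPM, and with the series as a term the log2 fold change was 1.82 (edgeR adjusted p = 0.00800).

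Slamf6, a receptor of T and B cells, moved the other way. It was at 22.7, 40.5 and 24.0 CPM on ND and at 0.425, 0.484, 0.354, 1.37 and 4.26 CPM on HFD. The groups were far apart, and HFD replicate 5, the library with the high B cell sum, was the highest of its group. The log2 fold change was -4.34 (SE 0.85, edgeR adjusted p = 0.00238), -5.42 without HFD replicate 5 and -3.47 with the header series as a term (edgeR adjusted p = 0.0365). Slamf6 passed the filter on low counts in iWAT through its ND libraries, so this test is not independent of the filter. Ly9, also a lymphocyte receptor, was at 30.1, 39.4 and 18.1 CPM on ND and at 1.07, 2.14, 0.455, 6.63 and 4.36 CPM on HFD. It too fell with no overlap, by 3.27 on the log2 scale (SE 0.71, edgeR adjusted p = 0.00424).

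Slamf7, which natural killer cells and activated macrophages carry, was at 14.6, 18.9 and 8.35 CPM on ND and at 5.53, 3.21, 4.14, 4.39 and 3.16 CPM on HFD, a log2 fold change of -1.74 (SE 0.29, edgeR adjusted p = 0.000971). Cd48, the ligand in this family, was at 16.4, 24.9 and 17.6 CPM on ND and at 11.2, 7.36, 8.34, 15.2 and 8.24 CPM on HFD (log2 fold change -0.93, SE 0.25, edgeR adjusted p = 0.0133). Slamf8, a myeloid receptor, was at 4.95, 6.42 and 2.93 CPM on ND and at 2.90, 1.5, 0.985, 2.90 and 2.26 CPM on HFD. For all 3 genes each HFD library was below each ND library, for Slamf8 only just. The same held for 22.7% of all genes tested. The Slamf8 change (log2 fold change -1.14, SE 0.38, edgeR adjusted p = 0.0341) lost its call without ND replicate 2 (edgeR adjusted p = 0.162) and with the series as a term (edgeR adjusted p = 0.171). Cd84 was at 21.2, 29.4 and 20.2 CPM on ND and at 36.0, 14.3, 15, 25.6 and 13.8 CPM on HFD, with overlapping groups and a log2 fold change of -0.14 (SE 0.31, edgeR adjusted p = 0.734).

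Marker lists moved strongly in the same iWAT comparison. All 10 T cell, 8 B cell, 7 lymph node and 5 leukocyte markers were lower on HFD, with medians of -3.72, -5.06, -5.48 and -2.30 on the log2 scale. Cd3e, which defines T cells, was at 36.5 to 49.3 CPM on ND and at 0.866 to 8.18 CPM in wild type iWAT on HFD. Of 10 macrophage markers 7 were higher (median 1.3), led by Adgre1, which encodes F4/80 (log2 fold change 2.18), and of 7 markers of lipid-associated macrophages 6 were higher (median 3.15), led by Trem2 (log2 fold change 4.84). The summed macrophage markers ranged over 485 to 597 CPM on ND and 508 to 1263 CPM on HFD. The part of these shifts in the member values was not tested. Set against the mean log2 CPM of the 10 macrophage markers, Slamf9 was at -2.58 ± 0.28 (SD, n = 3) on ND and at -1.79 ± 0.48 (n = 5) on HFD, with lowest and highest values of -2.89 to -2.34 and -2.43 to -1.28. By the same measure Cd84 went from 0.136 ± 0.169 to -1.13 ± 0.24 and Cd48 from -0.125 ± 0.234 to -2.09 ± 0.29. Slamf9 overlapped between the diets on this scale, whereas Cd84 and Cd48 did not.

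**Figure D2:**
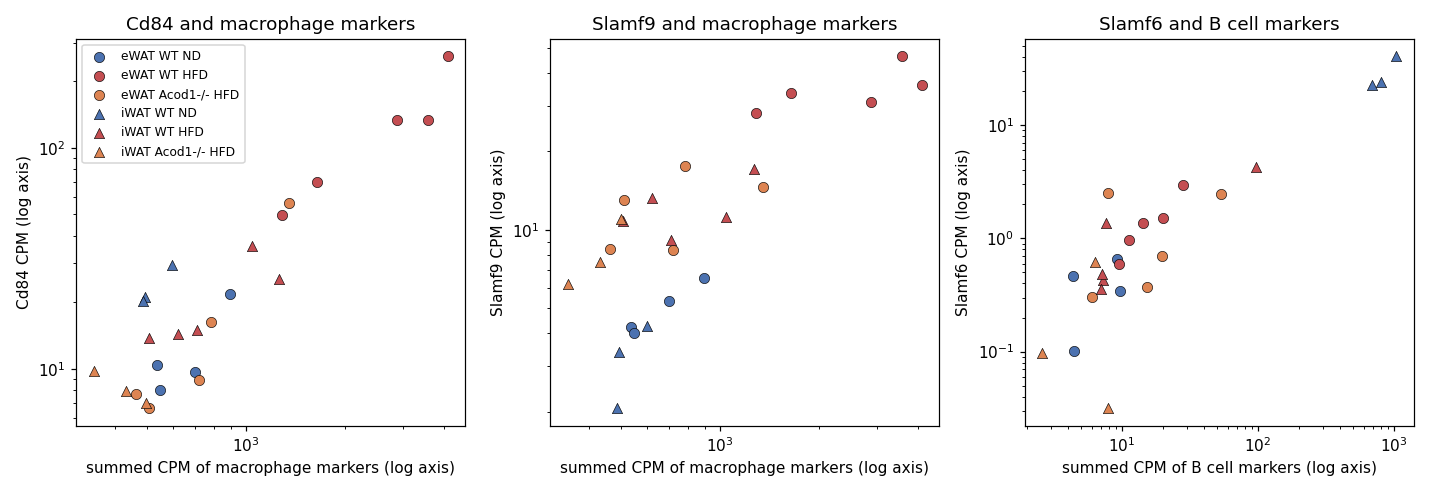
CPM of Cd84, Slamf9 and Slamf6 (vertical, log axes) against the summed CPM of 10 macrophage markers or 8 B cell markers (horizontal, log axes) in 25 libraries; circles are eWAT, triangles iWAT. Cd84 climbs with the macrophage sum, with the 3 iWAT ND libraries above that trend, and Slamf6 is highest in those same 3 libraries, whose B cell sums are 684 to 1028 CPM.

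The eWAT diet comparison selected Slamf9, so its values are a description with no test. All 7 members had positive log2 fold changes on HFD, from 1.90 (Slamf6) to 3.38 (Cd84). Slamf9 was at 6.55, 4.25, 5.34 and 4.03 CPM on ND and at 35.9, 30.9, 33.4, 46.4 and 28.1 CPM on HFD, a 6.93-fold difference (log2 2.79, SE 0.26). By fold it ranked 289 of 14936 genes and Cd84 ranked 184. The groups lay far apart and the HFD libraries were close together. Cd84 was at 21.8, 10.4, 9.62 and 8.04 CPM on ND and at 260, 134, 70.3, 134 and 49.5 CPM on HFD (log2 3.38, SE 0.71). Its HFD libraries spread more than those of Slamf9, as did those of Cd48, at 58.6, 28.9, 21.8, 38.2 and 19.6 CPM against 9.92, 4.14, 5.26 and 4.5 CPM on ND (log2 2.49, SE 0.46). Slamf7 was at 5.25, 3.05, 1.46 and 2.72 CPM on ND and at 35.5, 28.3, 10.9, 24.6 and 9.23 CPM on HFD (log2 2.80, SE 0.59). Slamf8 was at 2.58, 1.53, 1.56 and 0.856 CPM on ND and at 11.2, 9.47, 6.23, 9.90 and 3.78 CPM on HFD (log2 2.31, SE 0.64). Both were higher in every HFD library.

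The lymphocyte receptors overlapped between the diets in eWAT. Slamf6 was at 0.101 to 0.662 CPM on ND and at 0.594 to 2.98 CPM on HFD (log2 1.90, SE 0.74). Ly9 was at 1.01 to 4.26 CPM on ND, and on HFD at 12.9, 19.3 and 6.92 CPM in 3 libraries and under 1 CPM in the other 2 (log2 2.03, SE 0.90; 1.44 without HFD replicate 4 and 2.69 without ND replicate 1). In 5 of 7 members all HFD libraries were above all ND libraries, as in 17.2% of all genes tested; the choice of members used this contrast, so nothing is read from the count. With the header series as a term the log2 values became 1.17 for Slamf6, 3.48 for Slamf7, 3.61 for Slamf8 and 4.58 for Cd84, while the Slamf9 value was 2.78. The macrophage sum ranged over 534 to 894 CPM on ND and 1285 to 4097 CPM on HFD, the T cell sum over 8.46 to 15.8 and 19.7 to 45.6 CPM, and the B cell sum over 4.36 to 9.71 and 9.54 to 28.1 CPM; the part of these shifts in the member values was not tested.

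**Figure D3:**
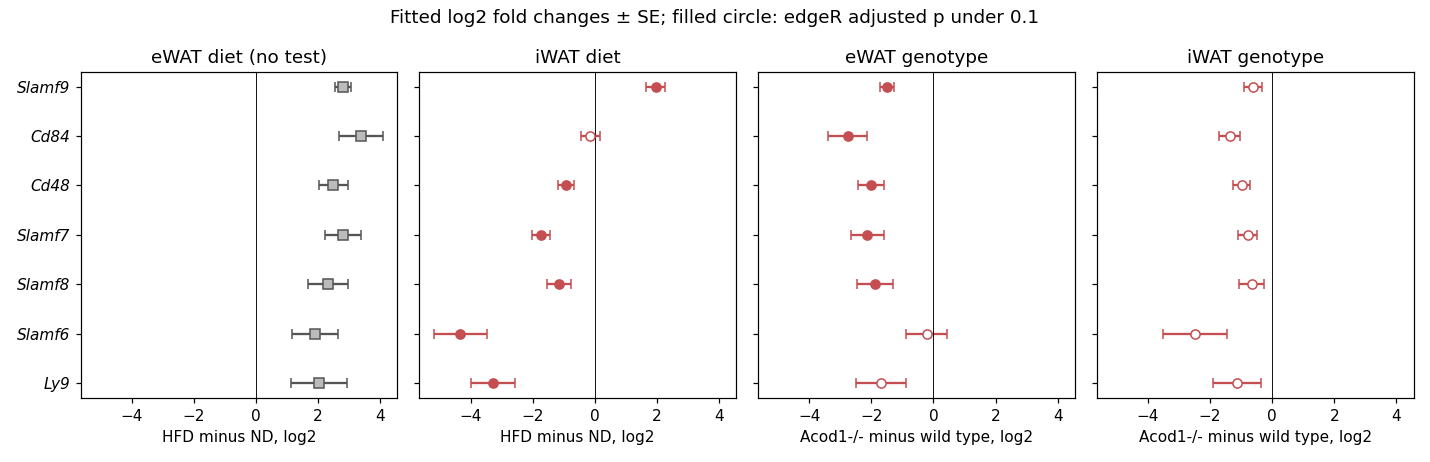
Fitted log2 fold changes with SE of the 7 receptors for diet (HFD minus ND, wild type) and genotype (Acod1-/- minus wild type, HFD) in each depot; filled circles passed an edgeR adjusted p under 0.1, open circles did not, and grey squares are the contrast that chose the members and carry no test. Slamf9 alone among the 7 is positive for iWAT diet, and all 7 values are negative for genotype in both depots.

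The genotype comparison asks what loss of Acod1 changed under HFD. In eWAT, Slamf7, Slamf8, Slamf9, Cd84 and Cd48 were lower in Acod1-/- than in wild type mice, and Slamf6 and Ly9 did not pass the test. These 5 of 7 stand beside 10.8% of all 14936 genes tested that were called lower. The wild type HFD libraries are shared with the contrast that chose the members, so this test is not independent of the choice of members.

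Slamf9 was at 17.6, 8.46, 13.1, 8.34 and 14.7 CPM in Acod1-/- eWAT, every library below the 28.1 CPM of the lowest wild type one. The difference was 2.81-fold (log2 fold change -1.49, SE 0.23, edgeR adjusted p = 0.0110), and -1.65 to -1.37 with any 1 library left out. The Acod1-/- libraries remained above the 4 ND libraries, whose highest was 6.55 CPM. Cd48 was at 7.36, 3.98, 5.55, 7.54 and 17.1 CPM, also wholly below the wild type libraries (log2 fold change -2.01, SE 0.41, edgeR adjusted p = 0.0132). These 2 members were the ones with no overlap between the genotypes, as in 4.37% of all genes in that direction.

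Cd84 was at 16.3, 7.66, 6.62, 8.90 and 56.1 CPM in Acod1-/- eWAT, a log2 fold change of -2.76 (SE 0.63, edgeR adjusted p = 0.0168). Slamf7 was at 4.01, 1.65, 3.16, 4.2 and 11.7 CPM (log2 fold change -2.13, SE 0.53, edgeR adjusted p = 0.0227). Slamf8 was at 1.47, 0.881, 0.762, 1.26 and 6.68 CPM (log2 fold change -1.87, SE 0.58, edgeR adjusted p = 0.0502). In all 3 genes it was Acod1-/- replicate 5 that reached into the wild type range, and the other 4 libraries lay below it. Without that replicate the log2 fold changes were -3.72 for Cd84, -2.75 for Slamf7 and -2.90 for Slamf8. Replicate 5 held the most macrophage marker RNA of its group (1350 CPM, against a group median of 721 CPM) as well as the epididymis markers; their part in its values was not tested. Slamf8 lost its call when any one of wild type replicates 1 or 4 or Acod1-/- replicates 1, 3 or 4 was left out (edgeR adjusted p = 0.101 to 0.112).

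Slamf6 was at 0.373, 0.306, 2.5, 2.48 and 0.696 CPM in Acod1-/- eWAT, a log2 fold change of -0.22 (SE 0.66, edgeR adjusted p = 0.860). Ly9 was at 2.84, 1.11, 3.24, 0.615 and 4.83 CPM (log2 fold change -1.69, SE 0.82, edgeR adjusted p = 0.188; -1.09 without wild type replicate 4). Both overlapped with the wild type group. Beside the members, 9 of 10 macrophage markers (median -1.74), 6 of 7 markers of lipid-associated macrophages (median -3.39) and 3 of 8 tested T cell markers were lower, and 0 of 6 tested B cell markers passed in either direction. The macrophage sum was 461 to 1350 CPM in Acod1-/- and 1285 to 4097 CPM in wild type eWAT. Relative to the mean log2 CPM of the 10 macrophage markers, Slamf9 was at -1.92 ± 0.60 (SD, n = 5) in wild type and -1.70 ± 0.52 (n = 5) in Acod1-/- eWAT. Slamf7, Slamf8 and Cd48 likewise overlapped between genotypes on this scale (-2.76 ± 0.23 and -3.14 ± 0.39 for Slamf7, -4.03 ± 0.25 and -4.25 ± 0.49 for Slamf8, -2.08 ± 0.18 and -2.36 ± 0.20 for Cd48). Cd84 was at -0.257 ± 0.230 in wild type and -1.54 ± 0.69 in Acod1-/- eWAT, and replicate 5 again overlapped. Within header series 1 alone (4 and 4 libraries) the same 5 members were called, with log2 fold changes from -3.92 (Cd84) to -1.63 (Slamf9). That refit, chosen after the values were seen, called 2160 of 14672 genes lower and 1633 higher.

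In iWAT none of the 7 members passed the test for genotype, nor did any of the 14801 genes (0%, edgeR; 2468 genes had an unadjusted p under 0.05). All 7 log2 fold changes were negative, with a median of -0.98 against -0.01 over all genes. Cd84 was at 6.97, 9.76 and 7.88 CPM in Acod1-/- iWAT, every library below the wild type ones (log2 fold change -1.37, SE 0.33, edgeR adjusted p = 0.137). Cd48 was at 5.19, 6.38 and 4.0 CPM (log2 fold change -0.98, SE 0.27, edgeR adjusted p = 0.153), and Slamf7 at 1.88, 2.37 and 2.98 CPM (log2 fold change -0.78, SE 0.31, edgeR adjusted p = 0.236). Their groups did not overlap, as in 5.10% of all genes in that direction. DESeq2's Wald test called Cd84 (adjusted p = 0.00458) and Cd48 (adjusted p = 0.0321) lower, beside 4.27% of all genes called lower by that tool. With edgeR, Cd84 was called without wild type replicate 5 (adjusted p = 0.0929), without Acod1-/- replicate 3 (adjusted p = 0.0712) and in header series 1 alone (adjusted p = 0.0877). In that order, these refits called 138 of 14831, 1263 of 14851 and 1131 of 14429 genes lower, and 72, 1401 and 1026 higher. The calls over all genes thus changed with the libraries used, and not for Cd84 alone.

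Slamf9 was at 11, 6.19 and 7.52 CPM in Acod1-/- iWAT, overlapping with wild type (log2 fold change -0.60, SE 0.29, edgeR adjusted p = 0.323). Slamf8 was at 1.57, 1.20 and 1.31 CPM (log2 fold change -0.66, SE 0.41, edgeR adjusted p = 0.443). Ly9 was at 1.70, 2.05 and 0.412 CPM, with a log2 fold change of -1.13 (SE 0.77). Slamf6 had 24, 1 and 4 counts in these 3 libraries, and its log2 fold change of -2.49 (SE 1.02, edgeR adjusted p = 0.252) was -4.31 without Acod1-/- replicate 1 and -1.40 without wild type replicate 5. The difference between the genotype effects of the depots was tested itself, and 0 of 7 members passed, beside 0.00665% of 15034 genes. For Slamf9 that difference was -0.91 (SE 0.36, edgeR adjusted p = 0.411), for Cd84 -1.40 (SE 0.77, edgeR adjusted p = 0.559) and for Cd48 -1.05 (SE 0.54, edgeR adjusted p = 0.522). Without Acod1-/- eWAT replicate 5, Slamf8 (-2.28, edgeR adjusted p = 0.0896) and Cd84 (-2.39, edgeR adjusted p = 0.0925) passed. Of all 15042 genes in that refit, 199 were called negative and 25 positive.

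Between depots, Slamf7, Slamf8 and Cd48 changed sides with diet. On ND, 5 of 7 were lower in eWAT than in iWAT, beside 14.2% of all genes. Slamf6 showed the widest gap (log2 difference, eWAT minus iWAT, -6.18, SE 1.03, edgeR adjusted p = 0.000167), then Ly9 (-3.87, SE 0.98, edgeR adjusted p = 0.00654; -4.55 without eWAT ND replicate 1), Slamf7 (-2.16), Cd48 (-1.72) and Slamf8 (-1.55). No eWAT library of these 5 genes reached the lowest iWAT one, as in 16.9% of all genes tested. Slamf6 was at a mean of 0.394 CPM in eWAT on ND, below the 1 CPM of the filter. Its mean was 29.07 CPM in iWAT on ND and at most 1.485 CPM in any other group. It passed the filter mostly through the iWAT ND libraries, so its depot test is not independent of the filter. Slamf8 lost its call (edgeR adjusted p = 0.108 to 0.220) without any one of eWAT ND replicates 2, 3 or 4 or iWAT ND replicates 1 or 2. Slamf9 (0.64, SE 0.30, edgeR adjusted p = 0.124) and Cd84 (-0.92, SE 0.61, edgeR adjusted p = 0.289) did not pass; without iWAT ND replicate 2 Slamf9 did (0.88, edgeR adjusted p = 0.0890). The iWAT ND libraries are those with the B cell, T cell and lymph node RNA given above.

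In wild type mice on HFD, 5 of 7 members were higher in eWAT than in iWAT, beside 10.8% of all genes. They were Cd84 (log2 difference 2.63, SE 0.54), Slamf7 (2.41, SE 0.46), Slamf8 (1.94, SE 0.51), Cd48 (1.73, SE 0.36) and Slamf9 (1.5, SE 0.24), with edgeR adjusted p = 0.000520 for Slamf9 and at most 0.0151 for the others. The groups of all 5 lay apart, as in 7.04% of all genes in that direction. Slamf6 (0.10, SE 0.73, edgeR adjusted p = 0.950) and Ly9 (1.48, SE 0.78, edgeR adjusted p = 0.233) overlapped. Both of these depot comparisons use eWAT libraries of the diet contrast that led to the list. The libraries of Acod1-/- mice on HFD are not in that contrast. Between their depots, 0 of 7 members passed, beside 3.81% of all genes (2092 of 15034 at an unadjusted p under 0.05). Their log2 differences ran from 0.59 (Slamf9, SE 0.28, edgeR adjusted p = 0.349) to 2.33 (Slamf6, SE 0.98, edgeR adjusted p = 0.278), the latter 4.19 without Acod1-/- iWAT replicate 1.

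Within groups, the members fell into a tight set and a loose one. The measure was Pearson's r of log2 CPM after the mean of each of the 6 groups was subtracted, over 25 libraries that share 2 header series and 2 depots; it is a description. Slamf7, Slamf8, Cd84 and Cd48 had r of 0.768 to 0.897 with each other. Within the Acod1-/- eWAT group all 4 were highest in replicate 5, and r without that library was not computed. Slamf9 had r of 0.401 to 0.57 with these 4. Slamf6 and Ly9 had r of 0.247 with each other and at most 0.25 and 0.376 with the 4. Ly9 had r of 0.509 with Slamf9. With Adgre1, the F4/80 gene of macrophages, r was 0.907 for Cd84, 0.837 for Cd48, 0.83 for Slamf7, 0.812 for Slamf8 and 0.55 for Slamf9, but 0.079 for Slamf6. With Cd3e of T cells it was 0.565 for Slamf6, 0.453 for Ly9 and 0.135 for Slamf9.

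The genes most like each member by this measure were taken from 15034 genes. They were Cd68 (0.959), Ctss (0.954) and Lcp1 (0.949) for Cd84, where Cd68 and Ctss encode lysosomal proteins of macrophages. For Cd48 they included Cd53 (0.941) and Cyba (0.917), which encodes a subunit of the phagocyte NADPH oxidase. Slamf8 was most like Selplg (0.934), Dock2 (0.92) and Lcp1 (0.911), and Slamf7 most like Tnfrsf1b (0.932), Myof (0.932) and Fem1c (0.917). Slamf9 had lower values with its nearest genes, Rasl11a (0.792), Dcn (0.781), which encodes decorin of the connective tissue matrix, and Tgfbi (0.769). For Slamf6 they were Xlr4c (0.872), Spic (0.799) and Pou2f2 (0.793). For Ly9 they were Egr1 (0.692), Ly6c2 (0.677) and Sh2d2a (0.675).

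**Figure D4:**
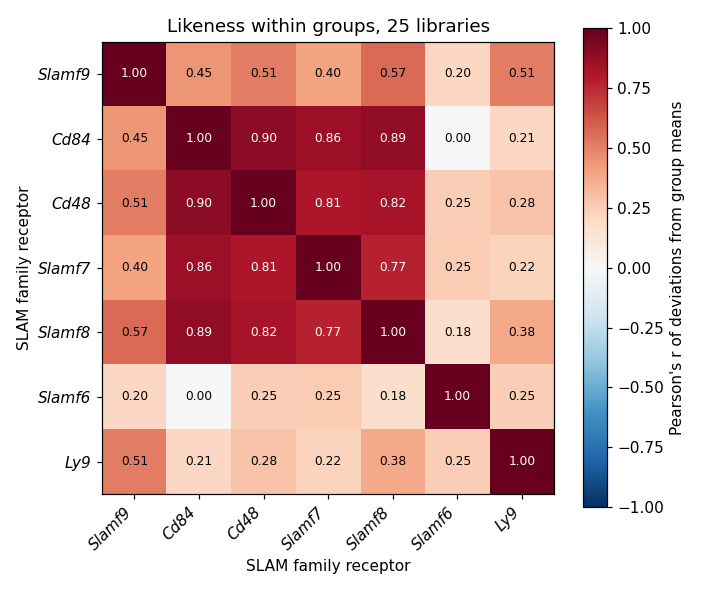
Pearson's r between the 7 receptors of log2 CPM deviations from group means over 25 libraries, from -1 (blue) to 1 (red). Cd84, Cd48, Slamf7 and Slamf8 form a block of 0.768 to 0.897, Slamf9 has intermediate values with them, and Slamf6 and Ly9 have low ones with that block.

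Of the other receptors and the ligand partner of the family, Slamf1 and Cd2 were highest in iWAT on ND (mean FPKM 1.145 and 23.9). In wild type iWAT on HFD they were at 0.0886 and 2.06. Cd244a was low in every group, with 0.379 in iWAT on ND and 0.296 in wild type eWAT on HFD. In iWAT, Slamf1 (log2 fold change -3.50, edgeR adjusted p = 0.00921) and Cd2 (-3.36, edgeR adjusted p = 0.000713), both lymphocyte genes, were lower on HFD, and Cd244a was at -0.81 (edgeR adjusted p = 0.386). In eWAT neither Cd244a (-0.62) nor Cd2 (0.21) passed for genotype, and Slamf1 was under the filter. Of the signalling genes downstream of the receptors, 10 of 12 were tested in each depot. In the eWAT genotype comparison 7 were lower, from Vav1 (-2.12, edgeR adjusted p = 0.0144) and Ptpn6 (-1.95, edgeR adjusted p = 0.0201) to Csk (-0.71), and 1 was higher, Ptpn11 (0.42, edgeR adjusted p = 0.0536). The EAT-2 gene Sh2d1b1 was among those lower (-1.66, edgeR adjusted p = 0.0915). In the iWAT diet comparison 8 were lower, led by Lck (-3.86, edgeR adjusted p = 0.00283), a T cell kinase, and Sh2d1a (-3.45, edgeR adjusted p = 0.0172), and again Ptpn11 was higher (0.60, edgeR adjusted p = 0.0514). The median over the tested genes of this list was -1.02 for eWAT genotype and -2.08 for iWAT diet, against 0.04 and 0.00 over all genes. Of all genes tested, 10.8% were called lower for eWAT genotype and 24.2% for iWAT diet.

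Genes of phagocytes that work beside SLAM receptors were called in both directions in inguinal fat. They are the integrin chains Itgam and Itgb2, the adaptors Fcer1g and Tyrobp, NADPH oxidase subunits and the Becn1 complex. All 13 were tested. For eWAT genotype 11 were lower, beside 10.8% of all genes. They ran from Tyrobp (-2.61, edgeR adjusted p = 0.0110) to Uvrag (-0.52), and Pik3c3 and Becn1 did not pass. For iWAT diet 4 were higher and 4 lower, near the 25.9% and 24.2% of all genes called in those directions. The higher ones were Fcer1g (1.29, edgeR adjusted p = 0.00806), Itgam (1.28), Tyrobp (1.24) and Uvrag (0.33). Lower ones included Rac2 (-2.87, edgeR adjusted p = 0.000118), Ncf4 (-1.69) and Ncf1 (-1.36). For iWAT genotype none of these 13, of the 10 signalling genes or of Slamf1, Cd244a and Cd2 passed (edgeR), with medians of -0.64 and -0.50 over the 13 and the 10.

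The stretch of chromosome 1 from Ly9 to Slamf8 holds 27 protein-coding genes, of which 20 are not members. Of the 16 of these tested in eWAT, 1 was higher and 4 were lower in Acod1-/- mice, beside 9.13% and 10.8% of all genes. Their median log2 fold change was -0.62 against -1.87 for the 7 members. Tagln2, which lies between Slamf9 and Slamf8 and encodes an actin-binding protein, was among the lower ones (-1.09, edgeR adjusted p = 0.0110) and is named after its value was seen. Of the 17 tested in iWAT, 7 were higher and 5 lower on HFD, beside 25.9% and 24.2% of all genes. Their median was 0.06 against -1.14 for the members. Called neighbours in the stretch went in both directions in either comparison, as did the called genes among all genes tested.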

How the data were processed

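Strand-specific poly(A) RNA libraries from whole eWAT and iWAT were sequenced by the authors. According to the labels and methods, reads were trimmed with cutadapt, filtered for contaminants and mapped with STAR to mm10 (GRCm38); bedtools is also named, and the counting program and its strand setting are not given in the sources used here. The deposited files hold, per library, whole-number counts per Ensembl gene, 2 FPKM columns (relative to counted or to all classified reads, scaled by the authors to cDNA length) and that length. Of 54752 gene identifiers, 54723 were paired with a symbol through GENCODE vM21 names. Groups came from the labels, with no library left out and none a copy of another (lowest chi-square per degree of freedom within a group 33.7). Each library is from a separate mouse of its group per the study's account, from a single experiment.

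Counts were tested with edgeR 4.0.16 (R 4.3.3; TMM, quasi-likelihood), per depot for diet and genotype and over all 25 libraries for depots and the interaction, after removal of genes whose mean was under 1 CPM, with Benjamini-Hochberg adjustment over all genes tested and a threshold of 0.1. CPM values use TMM over all 25 libraries. Differences from macrophage markers used log2(CPM + 0.5). DESeq2 1.42.0 was an alternative. On simulated counts with 200 changed genes, the iWAT genotype fit recovered 40.8% of genes changed by 1 and 80.6% of genes changed by 2 on the log2 scale (14624 genes). Single values were tested with exact permutation (scipy 1.17.1). Sequences are RefSeq's. The members, gene lists and named genes (all members, fixed pathway lists with their extremes, and the 3 genes most like each member) were chosen with earlier results of these data known. Some genes under these rules are not reported here.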

Additional observations from a re-analysis of the deposited data

Results flagged for a closer look

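Each member was screened in each group of 4 or 5 libraries, 28 sets of CPM values in all. Of these sets, 6 held a library whose gap to the nearest other one was large for the range (Dixon's criterion). Chance alone meets it in about 1 set in 20 where values are normally distributed, which was not checked for CPM. All 6 flags were the highest library of the set. Acod1-/- eWAT replicate 5 was such a library for 4 members: it was the highest of its group for Slamf7 (11.7 CPM), Slamf8 (6.68 CPM), Cd84 (56.1 CPM) and Cd48 (17.1 CPM). Wild type iWAT HFD replicate 5 stood above its group for Slamf6 (4.26 CPM), and wild type eWAT ND replicate 1 for Cd84 (21.8 CPM). These flags are not independent, since the members named for 1 library move together.

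Slamf7, Slamf8 and Cd48 went opposite ways on HFD in the 2 depots, in every library. The log2 fold changes were 2.80 in eWAT and -1.74 in iWAT for Slamf7, 2.31 and -1.14 for Slamf8, and 2.49 and -0.93 for Cd48. Of all genes tested, 17.2% had every HFD library above every ND library in eWAT. In iWAT, 22.7% had every HFD library below every ND library. The difference between the depots was not tested, because the eWAT contrast took part in choosing the members.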

How the results depend on the processing

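In refits of single members, 941 values kept the direction and side of the threshold, 15 lost a call, 10 gained one, 9 changed sign and 2 (Slamf8 and Cd84 in eWAT diet, which has no test) moved by over 1 SD. In eWAT genotype, 4 to 6 of 7 members were called under all settings and in wild type HFD depots 4 to 5. Requiring 1 CPM in every library left only 4 members to test and gave 3 calls in iWAT diet and 2 in the ND depot comparison, where the other settings gave at least 5 and 4. In iWAT genotype, DESeq2's Wald test called 2 members, header series 1 alone (chosen after seeing the data) 1, and leaving out 1 library 0 to 1. In the genotype by depot test, leaving out 1 library gave 0 to 2 calls. Shares or counts over all genes for the refits with calls in these 2 comparisons are given above. Signs turned only in values that did not pass. Slamf6 in eWAT genotype ran from -0.62 to 0.03 (0.016 and 0.027 without Acod1-/- replicates 1 and 2), Slamf6 in wild type HFD depots from -0.32 to 1.17 (-0.32, -0.13, -0.11 and -0.13 without eWAT replicate 1 and iWAT replicates 1, 2 and 3), Cd84 in iWAT diet from -0.42 to 0.036 (without ND replicate 2), and Slamf8 in Acod1-/- depots from -0.32 to 0.93. The cause was not tested. Same-numbered libraries of different groups had r over 0.1 in 20 of 54 pairs (median 0.0435, from -0.304 to 0.489). The highest was between eWAT and iWAT of wild type HFD replicate 4. Differently numbered libraries were not compared in this way, so the values do not settle whether the numbers are pairs. The main fits did not take them as pairs. With the replicate block, 5 members were called in eWAT genotype, 6 in iWAT diet, 0 in iWAT genotype, 5 in either wild type depot comparison and 0 in the Acod1-/- depots and the interaction, and Ly9 in iWAT genotype turned to 0.16. All 42 FPKM group means moved by less than 1 SD when taken relative to all classified reads. Depth limits Slamf6, with 1 to 24 counts in Acod1-/- iWAT, and Acod1.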

Other observations

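Relative to macrophage markers, members in Acod1-/- iWAT overlapped with those in wild type iWAT on HFD. As differences from the mean log2 CPM of the 10 markers, Slamf9 was at -1.60 ± 0.19 (SD, n = 3) in Acod1-/- and -1.79 ± 0.48 (n = 5) in wild type iWAT, Slamf7 at -3.16 ± 0.43 and -3.27 ± 0.32, and Cd48 at -2.20 ± 0.44 and -2.09 ± 0.29. In chow-fed mice Slamf9 was at -2.72 ± 0.02 (n = 4) in eWAT and -2.58 ± 0.28 (n = 3) in iWAT on the same scale. The ND libraries of eWAT (-2.74 to -2.69) lay within the range of wild type eWAT on HFD (-2.76 to -1.34) and below that of Acod1-/- eWAT (-2.31 to -1.13).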
